A study of Mus musculus with 6 samples.

Results

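The annexins are a family of calcium-dependent phospholipid-binding proteins, and 10 of their genes are described here in mouse intestinal epithelial cells with and without caspase-8. The listed genes were Anxa1, Anxa2, Anxa3, Anxa4, Anxa5, Anxa6, Anxa7, Anxa10, Anxa11 and Anxa13, out of 18193 genes measured, and every probe set that the platform annotation pairs with one of them was taken. They carry 21 probe sets, of which 20 name 1 gene alone. The remaining probe set is paired with Anxa11 and with other genes, so Anxa11 has no value here and 9 genes were measured. The family was chosen by results of the same comparison, in which Anxa1 was among the largest differences, so the values of its members are a description. The calls that limma gave them are printed only beside the share of all genes called, with how they varied, and serve as no evidence.

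Annexins share a conserved core that docks on negatively charged membrane lipids when calcium rises, and differ in the tail in front of it. They serve vesicle traffic, the link between membrane and actin, and the repair of torn plasma membrane. Annexin A1 restrains inflammation through formyl peptide receptors and is induced by glucocorticoids, and annexin A5 binds phosphatidylserine, the lipid that dying cells expose. In the gut, annexin A13 is a protein of the epithelium itself, while annexin A10 is best known from the stomach.

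The study compared C57BL/6 mice carrying the floxed caspase-8 gene without Cre (villinCre negative, 3 control arrays) with mice carrying the same floxed gene and Cre (villinCre positive, 3 deficient arrays). The villin promoter drives Cre in the gut epithelium, and both groups share the floxed allele. Each array is labelled a biological replicate. The sources used here give no age and no stretch of gut. Levels are log2 values, so that a difference of 1 is a doubling, and are given as mean ± SD over 3 arrays. They can be compared between arrays for a probe set, not between probe sets.

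The label was borne out on all 6 arrays by 10 epithelial markers such as Vil1 and Epcam, whose mean log2 level ran from 12.05 to 12.21. Casp8 read 10.53, 9.74 and 10.24 in control replicates 1 to 3, against 9.27, 9.56 and 10.40 in the deficient ones, and without knowing the deleted exons this probe set does not check the genotypes. Some arrays stood apart. Control replicate 3 carried stomach genes, with a mean over 9 of them of 7.34 against 4.86 and 4.91 in the other controls and 4.94 to 5.04 in the deficient arrays, and its B and plasma cell genes averaged 6.76 against 4.95 to 5.48 elsewhere. Deficient replicate 1 carried endothelial genes (mean 6.54 over 12 genes against 4.19 to 4.55 on the others) and kidney tubule genes (6.57 over 9 genes against 4.31 to 4.52). Gapdh control probes at the 3′ end exceeded those at the 5′ end, a gap that widens in degraded RNA, by 0.68 and 0.93 in the first and second control array and by 0.21 to 0.29 elsewhere. Fewer cells of a type and less RNA per cell cannot be told apart in such samples.

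Promoter sequences are shown for Anxa1, Anxa5 and Anxa10, the members with the largest differences, so that their starts can be set side by side. Each run is the 250 bases before the start of the gene, read 5′ to 3′ on the strand of the gene, from RefSeq on build GRCm38.p6. Anxa1 lies at chr19:20390672-20390921, Anxa5 at chr3:36475888-36476137 and Anxa10 at chr8:62123194-62123443, all on the minus strand. Capitals mark matches on either strand to 5 motifs, none of which overlap here. They are the TATA box, spelled TATAAA, and the CCAAT box, spelled as named. The AP-1 motif is TGANTCA. The core motif of the glucocorticoid receptor is TGTNCT. The GC box is GGGCGG.
Anxa1: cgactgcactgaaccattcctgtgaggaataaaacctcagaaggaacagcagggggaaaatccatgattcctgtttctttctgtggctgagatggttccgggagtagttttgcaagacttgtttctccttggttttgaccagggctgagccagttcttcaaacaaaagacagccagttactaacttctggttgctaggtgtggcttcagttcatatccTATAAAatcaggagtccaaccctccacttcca
Anxa5: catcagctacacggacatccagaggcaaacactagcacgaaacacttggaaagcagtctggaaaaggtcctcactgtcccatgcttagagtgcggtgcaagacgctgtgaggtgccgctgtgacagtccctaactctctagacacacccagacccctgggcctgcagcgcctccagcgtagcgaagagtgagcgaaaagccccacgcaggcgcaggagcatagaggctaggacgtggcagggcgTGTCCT
Anxa10: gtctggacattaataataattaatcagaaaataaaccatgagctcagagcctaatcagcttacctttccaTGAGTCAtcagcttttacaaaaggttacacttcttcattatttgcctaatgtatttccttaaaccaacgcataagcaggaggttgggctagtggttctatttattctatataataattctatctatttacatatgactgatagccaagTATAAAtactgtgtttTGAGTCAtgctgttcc

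Anxa1 and Anxa10 each held a TATAAA that begins 32 bases before the start, and Anxa5 held none. Of all 32851 promoters of this length, 12.4% held TATAAA on either strand. Anxa10 held the AP-1 letters 2 times, at 180 and 16 bases before the start, which 6.75% of all promoters hold at least once, and neither Anxa1 nor Anxa5 held them. The single match in Anxa5 was a receptor motif 6 bases before the start, a motif found in 44.7% of promoters. The CCAAT box stood in 33.9% of all promoters and the GC box in 32.7%, and neither in these 3. The GC content was 46.0% for Anxa1, 58.8% for Anxa5 and 33.6% for Anxa10, beside a median of 52.4%. These matches describe letters in the window and say nothing of which factors bind there. Of the 10 members, 7 matched the promoter table. Anxa3, Anxa6 and Anxa13 did not.

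Across the family, 8 of the 9 measured genes had a higher mean in the deficient cells, with a median difference of 0.71 on the log2 scale. Without control replicate 3 it was 8 of 9 with a median of 0.64, and without deficient replicate 1 it was 8 of 9 with 0.89. Among all 18193 genes, 53.9% were higher and the median was 0.022. In 6 of the 9, Anxa1, Anxa2, Anxa3, Anxa4, Anxa5 and Anxa13, every deficient array lay above every control array, as it did for 11.5% of all genes. A difference of at least 1 was found for 4, Anxa1, Anxa10, Anxa5 and Anxa3, against 0.72% of all genes. In limma across all genes, Anxa1 and Anxa5 passed an adjusted p of 0.05, 2 of 9 where 0.775% of all genes passed. Of 9 measured enterocyte markers, 8 were likewise higher and 6 had every deficient array above every control, with a median of 0.20. Since the family was picked with this comparison known, the annexin counts are not evidence about annexins as a group.

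**Figure D1:**
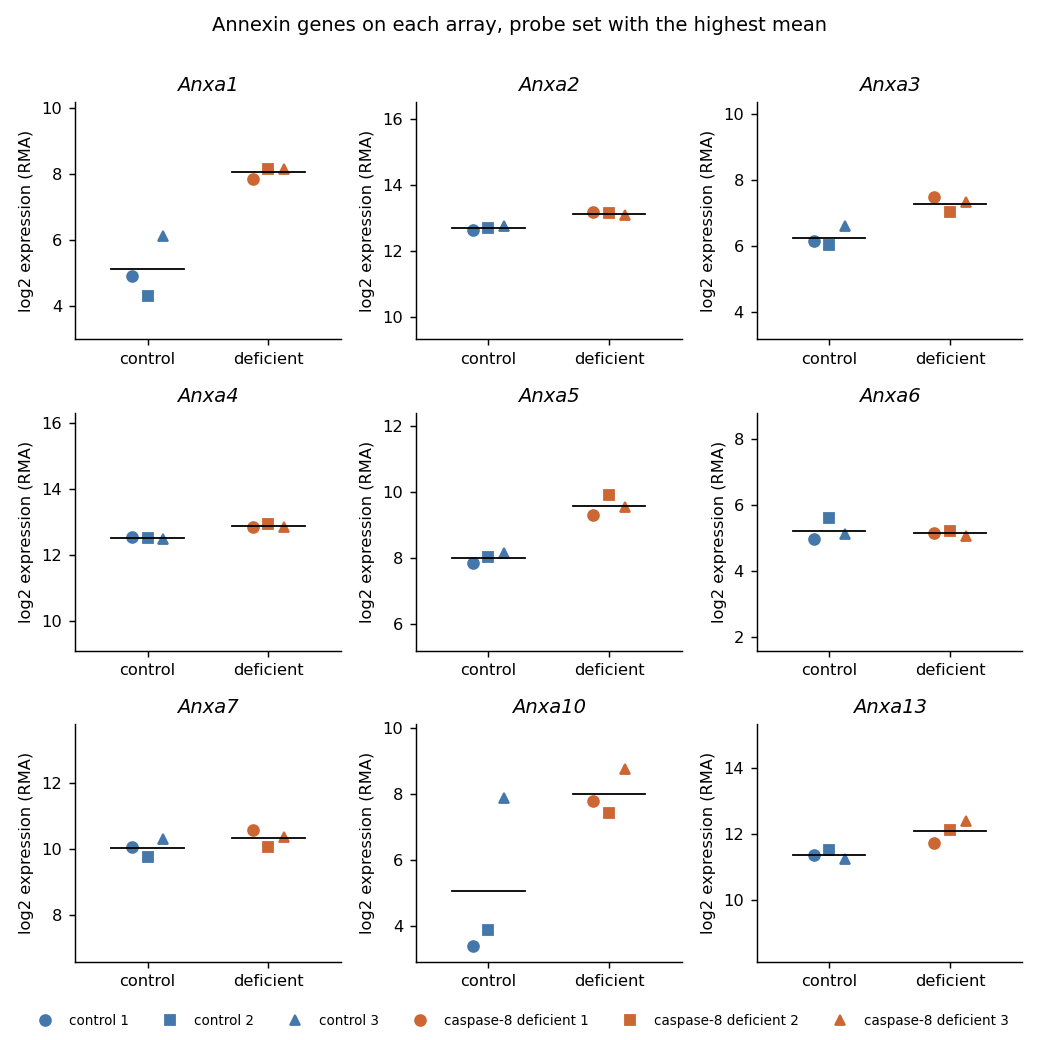
Log2 expression of the 9 measured annexin genes on each array, 1 panel per gene, with the control arrays in blue on the left and the caspase-8 deficient arrays in orange on the right. Black lines are group means, and every vertical axis spans the same number of log2 units. The groups lie apart by more than 1 unit for Anxa1 and Anxa5, while control replicate 3 of Anxa10 reads 7.88, among the deficient arrays.

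Anxa1, the annexin of inflammation control, read 4.92, 4.31 and 6.11 in control replicates 1, 2 and 3, against 7.85, 8.15 and 8.15 in the deficient ones. All deficient arrays stood at least 1.74 above the highest control, and the controls themselves were spread over 1.80. The means were 5.11 ± 0.92 and 8.05 ± 0.17, a difference of 2.94 (SE 0.39, n = 3) or 7.66-fold. Of the controls, replicate 3 was the highest. Against it alone the deficient mean was higher by 1.94, and against the mean of replicates 1 and 2 by 3.44.

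The second Anxa1 probe set read 3.28, 2.96 and 3.24 in the controls, against 3.76, 3.62 and 3.57 in the deficient arrays. Its groups did not overlap either, and it differed by 0.49 (SE 0.13). All these values lie below the array medians of 4.85 to 4.91. With the mean over both probe sets the Anxa1 difference was 1.71.

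The phosphatidylserine binder Anxa5 was read by 1 probe set, at 7.84, 8.04 and 8.14 in the controls, against 9.30, 9.90 and 9.54 in the deficient arrays. The lowest deficient array was 1.17 above the highest control, and no control stood apart from the others. The means were 8.01 ± 0.15 and 9.58 ± 0.30, a difference of 1.57 (SE 0.17) or 2.98-fold. Leaving out each array in turn gave 1.41 to 1.71, a narrower range than the 2.54 to 3.44 of Anxa1. Against control replicate 3 alone the deficient mean was higher by 1.44, and without deficient replicate 1, the array with endothelial and kidney genes, the difference was 1.71. With the Gapdh gap as a covariate it was 1.47, and Anxa5 no longer passed in limma (adjusted p = 0.128), while Anxa1, at 2.01, did. That gap was wide only on control replicates 1 and 2, so this fit leans on control replicate 3. An adjustment for RNA quality and a comparison with that array alone cannot be told apart.

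Anxa10 had an average difference as large as that of Anxa1, but its groups overlapped. Its probe set with the higher level read 3.38 and 3.86 in the first 2 controls but 7.88 in control replicate 3. The deficient arrays read 7.77, 7.42 and 8.76. The difference of the means was 2.94 (SE 1.05), with 5.04 ± 2.47 in the controls, against 7.98 ± 0.70 in the deficient cells. It was 4.36 without control replicate 3, and 0.10 when control replicates 1 and 2 were left out together. The second probe set had the same order of arrays within the controls, at 2.39, 2.43 and 3.65, and read 3.22, 2.88 and 4.15 in the deficient ones, a difference of 0.59 (SE 0.41).

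The high control for Anxa10 was the array that carried stomach genes. Gkn2 and Gkn1, which encode gastrokines of the stomach surface, stood 6.69 and 6.44 above the higher of the other controls there. Anxa10 came next with 4.02, the third of 18193 genes by this gap, which reached 4 in 3 genes and 2 in 6. Tff1, a trefoil peptide of the stomach surface, followed with 3.98, then Ctse, the gene of cathepsin E, with 2.65, and Muc5ac, the mucin of the stomach surface, with 2.54. On the deficient arrays Gkn2, Gkn1, Tff1 and Muc5ac stood near control replicates 1 and 2. Gkn2 read 4.11, 4.12 and 4.29, Gkn1 4.15, 4.47 and 4.07, Tff1 7.70, 7.54 and 7.49, and Muc5ac 4.79, 5.25 and 4.94. In summed level on the linear scale, expressed as log2, the 9 stomach genes stood at 8.58, 8.70 and 12.8 in the controls and between 8.75 and 8.85 in the deficient arrays. Tff2, another of the 9, was likewise highest in control replicate 3, with the deficient arrays near control replicates 1 and 2. Ctse, Gkn3, Pgc, Atp4a and Atp4b did not follow that pattern. Ctse, which was not on the list, read 7.21, 7.15 and 9.86 in the controls, against 8.74, 8.45 and 8.20 in the deficient arrays, so that it was high where Anxa10 was high. Gkn3 had all deficient arrays, at 5.84, 5.50 and 5.98, above the controls at 5.40 to 5.47, a difference of 0.34 (limma adjusted p = 0.287). Pgc, Atp4a and Atp4b, genes of the chief and parietal cells of the stomach, did not stand out in control replicate 3, at 4.18, 3.65 and 6.12. Anxa10 was thus high on the deficient arrays where Gkn1, Gkn2, Tff1 and Muc5ac were low, and high in control replicate 3 where they were high.

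The sign of RNA quality split the 6 arrays as Anxa10 did. The Gapdh gap was 0.68 and 0.93 on control replicates 1 and 2, where Anxa10 was low, and 0.21 to 0.29 on the other 4 arrays, where it was high. With that gap as a covariate the Anxa10 difference was 0.73 in place of 2.94. The part of stomach cells and of RNA quality in the Anxa10 values was not tested.

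**Figure D2:**
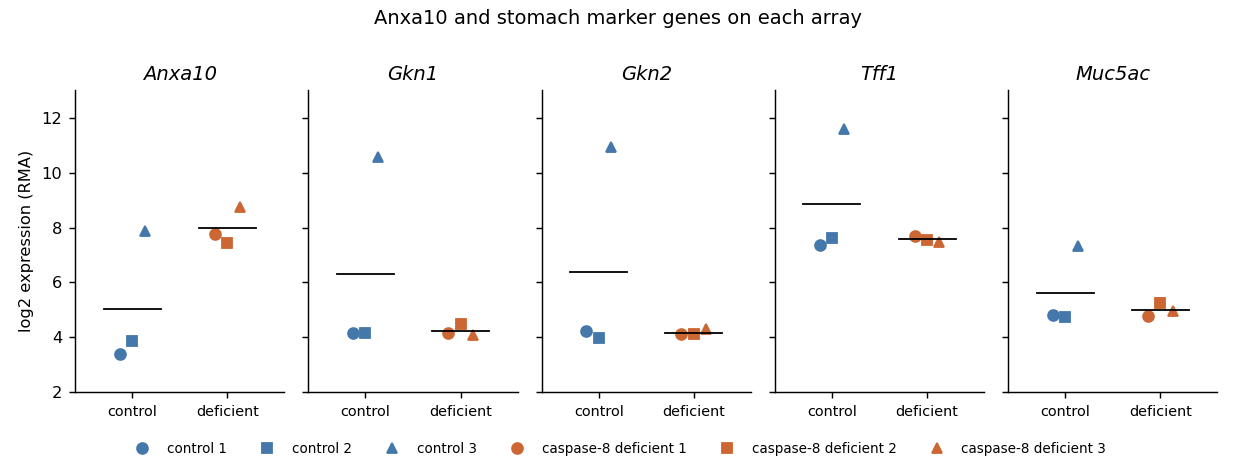
Log2 expression of Anxa10 and of the stomach genes Gkn1, Gkn2, Tff1 and Muc5ac on each array, with controls in blue and caspase-8 deficient arrays in orange and group means as black lines. Control replicate 3, the blue triangle, is high in all 5 panels. The deficient arrays are high for Anxa10, at 7.42 to 8.76, and low for the other 4 genes.

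Anxa3, whose protein is found in phagocytes and in many epithelia, read 6.13, 6.00 and 6.58 in the controls, against 7.46, 7.03 and 7.32 in the deficient arrays. The groups were 0.45 apart, and the difference was 1.03 (SE 0.18) or 2.05-fold. As with Anxa1, control replicate 3 was the highest control, and the difference was 1.20 without it. It was 0.69 when control replicates 1 and 2 were left out together.

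Anxa13, the annexin of the gut epithelium, read 11.36, 11.52 and 11.23 in the controls, against 11.74, 12.12 and 12.40 in the deficient arrays. The lowest deficient array, replicate 1, stood 0.22 above the highest control. The difference was 0.71 (SE 0.18), or 1.64-fold, and it was 0.89 without that replicate. By the probe set with the highest mean, control replicate 3 was the lowest of the controls here and for Anxa4. It was the highest for Anxa1, Anxa2, Anxa3, Anxa5, Anxa7 and Anxa10. The order was not that of every probe set. In the other Anxa4 probe sets control replicate 3 was the highest control, at 11.18 and 10.16. In the second Anxa1 probe set and the lowest of Anxa2, control replicate 1 was the highest, at 3.28 and 2.51.

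Anxa2, which pairs with S100a10 at the membrane, and Anxa4, an annexin of secretory epithelia, had small differences with little spread. Anxa2 read 12.64, 12.70 and 12.77 in the controls, against 13.18, 13.14 and 13.08 in the deficient arrays, a difference of 0.43 (SE 0.11). Anxa4 read 12.54, 12.50 and 12.49 against 12.84, 12.95 and 12.85, a difference of 0.37 (SE 0.11). The gap between the groups was 0.31 for Anxa2 and 0.30 for Anxa4, wider than the range of the arrays within a group.

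The other probe sets of these genes lie lower. For Anxa4 they differed by 0.65 and 0.66, with 10.99 ± 0.22 against 11.64 ± 0.16 and 10.09 ± 0.07 against 10.75 ± 0.11, and in both the groups did not overlap. For Anxa2 they differed by 0.20 and 0.19, one with groups apart (5.75 ± 0.01 against 5.95 ± 0.07) and the other, at 2.39 ± 0.19 and 2.57 ± 0.33, with groups that overlapped. The lower Anxa4 probe sets gave larger differences than the highest, and those of Anxa2 gave smaller ones. A probe set of each of these genes is of the _x_at type, which may also bind other transcripts.

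In Anxa6 and Anxa7, as in Anxa10, the groups overlapped, and here the differences were small. Anxa6, whose protein carries a duplicated annexin core, read 4.95, 5.59 and 5.11 in the controls, against 5.16, 5.21 and 5.07 in the deficient arrays. Its difference was −0.07 (SE 0.17), and its sign turned in 3 settings, without control replicate 2 (0.11), without control replicates 1 and 2 (0.03) and with the Gapdh gap as a covariate (0.12). The other 3 probe sets ran from −0.26 to 0.04. Anxa7, or synexin, which helps membranes fuse, read 10.05, 9.76 and 10.29 against 10.57, 10.05 and 10.36, a difference of 0.29 (SE 0.18). Its other probe sets differed by 0.23 and 0.04. The 95% interval, from −0.47 to 0.32 for Anxa6 and from −0.13 to 0.72 for Anxa7, does not show that these genes were alike in both groups.

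**Figure D3:**
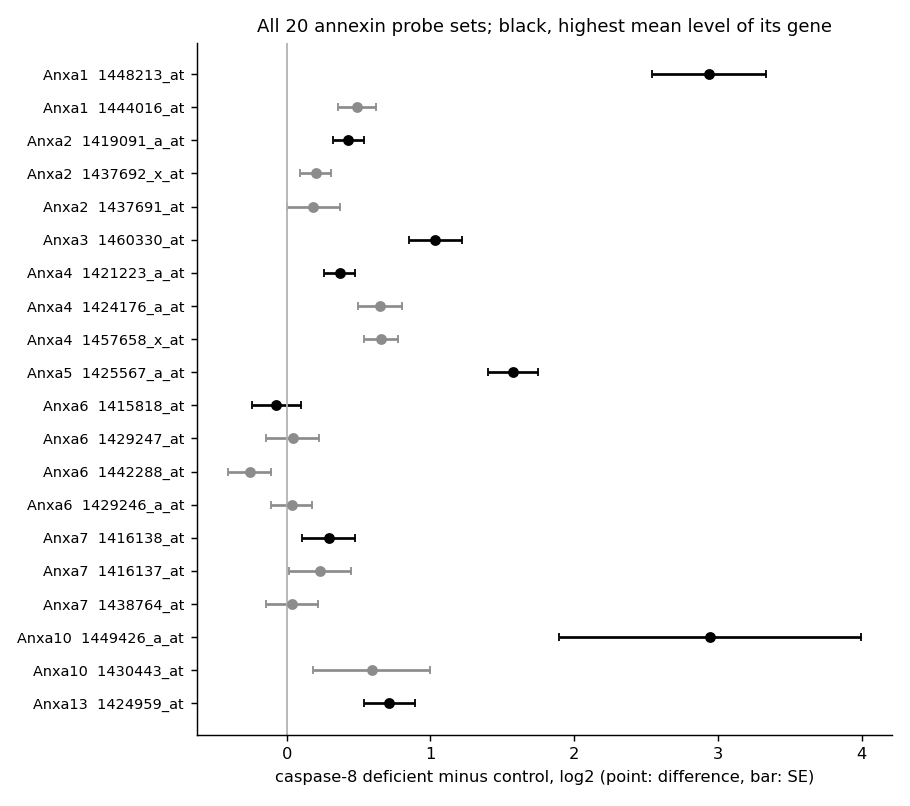
Difference between caspase-8 deficient and control arrays on the log2 scale for all 20 annexin probe sets, with the standard error as a bar. Black points are the probe set with the highest mean level of its gene and grey points the others. Anxa1 and Anxa10 each have a probe set near 2.94 and another below 0.6, while the 3 probe sets of Anxa4 lie between 0.37 and 0.66 and the 4 of Anxa6 around 0.

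The 20 probe sets read only 9 genes, so they are not separate observations. By probe set, 18 of 20 were higher in the deficient cells, as were 53.2% of the 34945 probe sets with 1 gene. In 10 of 20 all deficient arrays lay above all controls, where 11% of those 34945 do. In limma over all of these probe sets, 2 of 20 passed, against 0.398% of all, and they were those of Anxa1 and Anxa5 already described. Both passed without control replicate 3 or deficient replicate 1 in the gene fit. Without control replicate 1, control replicate 2 or deficient replicate 3 neither did, and without deficient replicate 2 Anxa5 alone did. Without control replicate 3 Anxa10 also passed, and without deficient replicate 1 Anxa13 did.

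**Figure D4:**
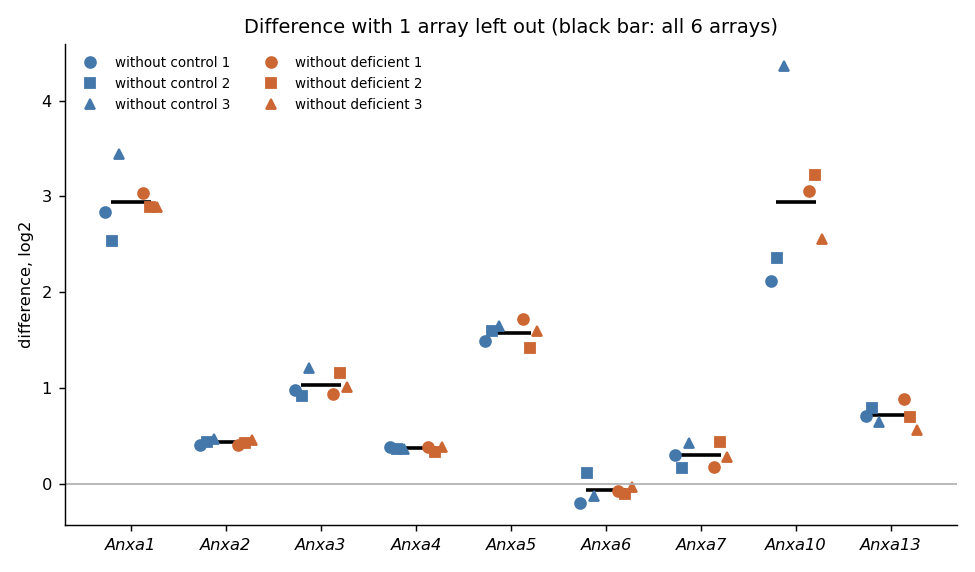
Log2 difference of each annexin gene with 1 array left out, blue for a control and orange for a deficient array, and with all 6 arrays as a black bar. Leaving out control replicate 3 moves Anxa10 from 2.94 to 4.36 and Anxa1 to 3.44, while Anxa2 and Anxa4 stay between 0.33 and 0.46 whichever array is left out.

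Other genes had array profiles close to those of the 3 members with the largest differences. Likeness was measured over the 6 arrays as the root mean square difference of profiles, each centred on its own mean. For Anxa10 the nearest of all named genes was Anxa1 itself (1.05), followed by Ly6d (1.18), Tm4sf4 (1.38), Ly6g6c (1.39), Sprr1a (1.42) and Acta1 (1.44). In none of these 6 did control replicate 3 lie among the deficient arrays, as it did for Anxa10. For Anxa1 the nearest were Ly6d (0.41), Crct1 (0.58), Il1rn (0.61), Ly6g6c (0.62), Acta1 (0.62) and Paqr8 (0.72). For Anxa5 they were Mt1 (0.21), Herc6 (0.23), Ddx60 (0.23), Rtp4 (0.24), Paqr8 (0.25) and Plpp1 (0.25). Paqr8 was near both Anxa1 and Anxa5. The profiles of Anxa1 and Anxa5 were added to this search after their values were seen, and genes so near must share the group difference.

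Several of those neighbours are known from squamous epithelium, where annexin A1 is also abundant. Of 17 measured squamous genes, 3 passed, where 0.775% of all genes did. They were Crct1, Ly6d and Ly6g6c, with differences of 3.18, 2.44 and 2.64 (limma adjusted p = 0.000962, 0.0263 and 0.0476). The list holds them because of earlier results on these arrays. The defining keratins of that tissue did not pass. Krt5 ran from 5.27 to 5.35 in the controls, against 5.33 to 5.64 in the deficient arrays, Krt14 3.90 to 4.31 and 3.74 to 4.22, and Krt13 2.79 to 3.03 and 2.79 to 2.98. Trp63, their master regulator, read 3.50 to 3.84 and 3.65 to 4.15. The summed level of the 17 genes, as log2, was 9.5 to 9.82 in the controls, against 10.62 to 10.80 in the deficient arrays. That sum includes Crct1, Ly6d, Ly6g6c and Sprr1a, so its rise is not separate from theirs. Sprr1a read 5.69, 7.33 and 7.27 in the controls, against 7.64, 8.69 and 9.17 in the deficient arrays. It differed by 1.74 (limma adjusted p = 0.164). Pkp1 went the other way, at −0.64 (limma adjusted p = 0.204), with all deficient arrays below all controls. The median difference of the 17 genes was 0.13. Myeloid cells are another known source of annexin A1. The mean of 11 myeloid genes was 4.81 to 5.19 in the controls, against 4.99 to 5.04 in the deficient arrays, and 0 of them passed in limma, 1 at an unadjusted p under 0.05. The part of these cell types in the annexin values was not tested.

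Of 69 measured genes outside the family, drawn from 5 lists of annexin partners and pathways and 1 list of glucocorticoid-induced genes, 2 passed in limma over all genes, where 0.775% of all genes did. Plaur rose and Pla2g4c fell. Pla2g4c, a cytosolic phospholipase A2, read 8.26, 7.57 and 8.92 in the controls, against 4.39, 4.04 and 4.32 in the deficient arrays. It fell by 4.0 (SE 0.30, limma adjusted p = 0.00251), while its other probe set differed by −0.46. The deficient values lie below the array medians, where RMA values near the floor leave the size of the fall uncertain. Plaur, the urokinase receptor, read 6.32, 6.27 and 6.07 against 6.86, 7.08 and 7.02. It rose by 0.77 (SE 0.12, limma adjusted p = 0.0431), a call that was lost without any array but deficient replicate 1, at adjusted p between 0.0968 and 0.179.

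**Figure D5:**
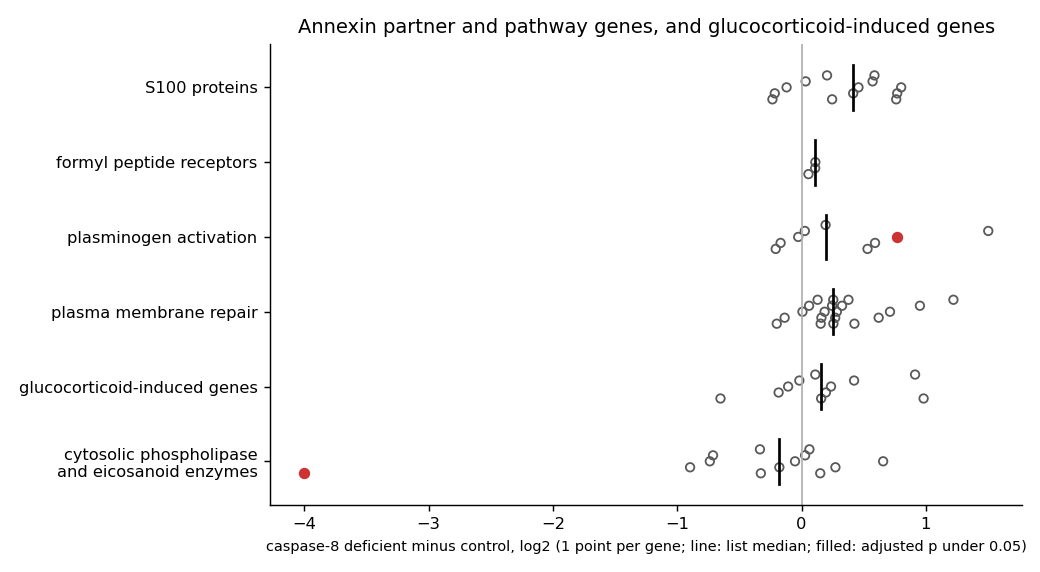
Log2 difference between caspase-8 deficient and control arrays for 69 genes in 6 lists, 5 of annexin partners and pathways and 1 of glucocorticoid-induced genes, 1 point per gene, with the list median as a black line. The filled points are Pla2g4c, at −4.0, and Plaur, at 0.77, and the other points did not pass an adjusted p of 0.05.

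S100 proteins are small calcium-binding proteins, several of which dock on annexin tails. S100a11 was listed and not measured. Of 13 measured, 0 passed in limma (4 at an unadjusted p under 0.05), 10 were higher and in 5 all deficient arrays lay above all controls, with a median of 0.42. Of all genes, 53.9% were higher and 11.5% had every deficient array above every control. Without deficient replicate 1, the array with endothelial and kidney genes, 10 were still higher but the median was 0.17. S100a8 and S100a9, the neutrophil calprotectin genes, read 4.62 and 5.51 on that array and 2.97 to 3.62 on the others. S100a10, the partner of annexin A2, read 12.51, 12.17 and 12.74 in the controls, against 12.88, 12.97 and 12.95 in the deficient arrays. Its difference was 0.46 (SE 0.16, limma adjusted p = 0.212), close in size to the 0.43 of Anxa2, and 0.24 and 0.25 by its other probe sets. S100a6, a partner of annexin A11, differed by 0.76 (11.22 ± 0.29 against 11.98 ± 0.10, adjusted p = 0.083). S100a14 and S100a5 stood at 0.77 and 0.57 (adjusted p = 0.127 and 0.116).

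Genes of the formyl peptide receptor family showed no such separation, though Fpr1 was listed and not measured. The 3 measured genes, Fpr2, Fpr-rs3 and Fpr-rs4, stood at 0.11, 0.11 and 0.06, with groups that overlapped in each. Of them, 0 passed in limma or had an unadjusted p under 0.05. Their values, 2.75 to 4.18 over all arrays, lay below the array medians.

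Of 9 genes of plasminogen activation, the protease system that annexin A2 with S100a10 recruits to the cell surface, 1 passed, Plaur, and the median was 0.19. Without deficient replicate 1 the median was 0.0016. The tissue plasminogen activator gene Plat read 9.53 on that array and 4.4 to 5.0 on the others. Plg, which encodes plasminogen, the receptor gene Plgrkt and the protease gene Plau stood at 0.59, 0.53 and 0.19 (adjusted p = 0.161, 0.176 and 0.506). Of 20 genes of plasma membrane repair, 0 passed in limma (4 at an unadjusted p under 0.05), 18 were higher and 8 had all deficient arrays above all controls, with a median of 0.26, beside the same 53.9% and 11.5% of all genes. Without deficient replicate 1 it was 15 of 20 with a median of 0.23. Cav1 and Cavin1, which build caveolae, read 6.26 and 6.36 on that array and 3.53 to 4.49 on the others. Capn2, the large subunit of calpain 2, came nearest, at 7.66, 7.61 and 8.37 against 9.26, 9.18 and 8.86, a difference of 1.22 (SE 0.22, limma adjusted p = 0.0541). Chmp3 of the ESCRT machinery, the calcium sensor gene Pdcd6 and Ehd1 stood at 0.62, 0.43 and 0.28 (adjusted p = 0.0887, 0.239 and 0.256).

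Of 11 glucocorticoid-induced genes, 0 passed in limma (3 at an unadjusted p under 0.05). Of the 11, 7 were higher, beside 53.9% of all genes, and the median was 0.16. Without control replicate 3, 9 were higher with a median of 0.27, and without deficient replicate 1, 6 were higher with 0.13. Errfi1 and Mt2 were the highest of those named, at 0.91 and 0.98 (adjusted p = 0.111 and 0.198), while Sgk1 stood at 0.42 and Cebpd at −0.65 (adjusted p = 0.391 and 0.156). Of 13 genes of cytosolic phospholipases and eicosanoid enzymes, 1 passed in limma, Pla2g4c (5 at an unadjusted p under 0.05). Of the 13, 5 were higher, beside 53.9% of all genes. In 4, all deficient arrays lay below all controls, as in 2043 of all 18193 genes. The median was −0.18, or −0.09 without control replicate 3 and −0.08 without deficient replicate 1. Alox5, which encodes 5-lipoxygenase, and Ptgs2, the inducible cyclooxygenase, stood at −0.71 and −0.74 (adjusted p = 0.0742 and 0.144), and Alox12 at 0.66 (adjusted p = 0.0908). Alox5ap stood at −0.90 (limma adjusted p = 0.146).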

How the data were processed

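Expression was measured on a 3′ Affymetrix array in 6 samples, 3 per group, with groups and replicate numbers from the sample titles. The authors deposited log2 expression values made with RMA, per the submitters' processing notes (its version is not given in the sources used here). RMA brings arrays to a common distribution and pulls dim signals towards a floor, and 23.4% of probe sets had the same value on at least 2 arrays. With 3 arrays a group, their number limits the precision. There were 45101 probe sets. The 64 control probe sets, 932 paired with several genes and 9160 with none were left out, and 34945 remained. In the gene fit a gene was represented by its probe set with the highest mean, which gave 18193 genes, without a filter on dim genes.

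Deficient minus control was tested with limma 3.58.1 (lmFit, then eBayes; two-sided; no covariates; R 4.3.3) and adjusted by Benjamini-Hochberg over all genes, or over all probe sets in a second fit, at 0.05. The fit was tested on simulated data. P-values reflect only how much biological replicates vary within the groups, with the spread of each gene drawn by eBayes towards that of all genes fitted. The members, the 6 partner lists (69 of 80 genes measured) and the marker lists were chosen with earlier results of these data known. Genes named were all annexins, the partner genes that passed and up to 4 of each list with the smallest p, and the 6 nearest profiles; markers, Ctse, Plat, S100a8, S100a9, Cav1 and Cavin1 were named after their values were seen. Promoters came from the RefSeq table. Alternatives were a replicate block, leaving out arrays, the mean over probe sets, leaving out _x_at and _s_at probe sets or dim features, median centring, a variance trend with a robust prior and the Gapdh difference as a covariate. List counts without control replicate 3 or deficient replicate 1 were added after seeing the data. Tables and plots used Python 3.11.15, pandas 2.3.3, numpy 2.4.6 and matplotlib 3.10.9.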

Additional observations from a re-analysis of the deposited data

How the results depend on the processing

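The 141 genes and 139 probe sets that passed became 298 and 362 without features below the median level, 252 and 250 with a variance trend and robust prior, 36 and 23 with the Gapdh difference as a covariate, and 5 and 3 without control replicates 1 and 2, where the lone control is assumed to vary like the other arrays. Leaving out 1 array gave 18 to 251 genes and 19 to 291 probe sets. The 2 annexin genes and 2 annexin probe sets that passed became 4 and 4 with the variance trend, 1 and 1 with the Gapdh covariate, 0 and 0 without control replicates 1 and 2, and 0 to 3 in both fits with 1 array left out. Without dim features 4 annexin probe sets passed. The 2 partner genes became 1 with the replicate block, 5 without dim features, 4 with the variance trend, 1 without control replicates 1 and 2, and 1 to 4 with 1 array left out. Pla2g4c passed in all 14 alternatives, and Plaur stood at an adjusted p of 0.0811 with the replicate block. The cause was not tested. With the replicate number as a block, 113 genes and 108 probe sets passed, 2 annexins among each; the deviations of same-numbered arrays correlated at 0.077, 0.10 and −0.0074, so the numbers were not taken to pair the samples.

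Over 125 annexin differences under alternatives, 115 lay within 1 SD of the value with all arrays. Of the other 10, Anxa10 stood at 0.73 with the Gapdh covariate and 0.10 without control replicates 1 and 2, and Anxa1 at 2.01 and 1.94. The SD was that of each gene within its groups, so this count does not measure stability for a gene with a wide spread. For Anxa10, with SDs of 2.47 and 0.70, a difference of 4.36 without control replicate 3 counted as within 1 SD of 2.94. So did 1.77 with the mean over probe sets. All measured annexins but Anxa6 kept their direction in all 14 alternatives, and Anxa6 in 10 of 13. Without features below the median level Anxa6 was not tested.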
